A study of Homo sapiens with 12 samples.

Results

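The accessible sites described here were those that fell on DNA outside the assembled chromosomes, together with those inside the ribosomal RNA genes of the acrocentric chromosomes. A summit, the highest point of an accessible interval, was taken as a member when its sequence was an unplaced scaffold (name beginning chrUn) or an unlocalised scaffold (name ending _random). Summits on chromosomes 21 and 22 were added when they lay inside a RefSeq GRCh38 gene for the 45S precursor or for the 18S, 28S or 5.8S ribosomal RNA. In all, 4011 of 188019 summits met this rule, 2.13% of the list (95% exact binomial interval 2.07 to 2.2%, counting error only). Of these, 1723 lay on 65 unplaced scaffolds, 2253 on 41 unlocalised scaffolds, 35 inside ribosomal RNA genes of chromosome 21 and 0 inside such genes on assembled chromosome 22. RNA45SN4, the 45S gene listed under chromosome 22, has scaffold positions and was assigned to an unlocalised scaffold. For this gene the 0 reflects its placement and is no measure of accessibility on assembled chromosome 22. The rule used sequence names and gene positions and no measured value.

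The cells were HT1080, an established human fibrosarcoma line, and accessibility was measured by ATAC-seq, in which a transposase cuts and tags open DNA. Cells were kept in rat tail type I collagen for 48 h at 0.3 mg/mL (low), 1.0 mg/mL (medium) or 1.7 mg/mL (high), with 4 libraries in each of the 3 groups and 12 in all. All 3 groups received 20 µM GM6001, a broad inhibitor of matrix metalloproteinases, so no group shows cells with these proteases active. The model is 1 tumour line, grown in gels, released with collagenase and frozen and thawed before transposition. The list analysed here was 1 pooled list with no value for a library or a concentration. No comparison between collagen concentrations was therefore made, there is no replicate error on any value below, and the depth of each library was not analysed here.

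Human ribosomal RNA genes lie in tandem arrays on the short arms of the acrocentric chromosomes, and each unit is separated from the next by an intergenic spacer. RNA polymerase I transcribes a 45S precursor in the nucleolus, and processing removes the external (ETS) and internal (ITS) transcribed spacers to leave the 18S, 5.8S and 28S RNAs. Only part of the copies in a cell is active at a time, and active copies carry few nucleosomes. Unlocalised scaffolds are pieces of the genome whose chromosome is known and whose place on it is not, while for unplaced scaffolds the chromosome is unknown too. Many are built of satellite or other repeated DNA, and a cell can hold many more copies of such a repeat than the assembly shows. Fragments from all copies can gather on the copy in the assembly, so copy number and openness per copy cannot be told apart in the pileups below.

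The short RNA genes that RefSeq places beside or inside the 45S units are shown first, because their positions mark the accessible start of a unit and a stretch of the 5′ ETS where no site was called. The 2 genes shown belong to RNA45SN1, a 45S gene of chromosome 21 (chr21:8433222-8446572, GRCh38.p14, plus strand). Sequences are RefSeq's, 5′ to 3′, with the seed (bases 2 to 8) of the mature RNA in capitals.
MIR6724-4 hairpin: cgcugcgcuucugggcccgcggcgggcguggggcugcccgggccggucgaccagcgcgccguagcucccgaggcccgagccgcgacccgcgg
hsa-miR-6724-5p: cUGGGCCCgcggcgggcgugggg
hsa-miR-10396b-5p: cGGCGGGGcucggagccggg
hsa-miR-10396b-3p: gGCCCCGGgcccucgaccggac

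The hairpin of MIR6724-4 (chr21:8432530-8432621, 92 nt, 83.7% G or C) began 692 bp before the start of RNA45SN1. It lay inside the accessible interval that covers that start, chr21:8432342-8435544. Sister genes had the same placement in the other chromosome 21 units: MIR6724-1 began 673 bp before RNA45SN2, and MIR6724-3 began 673 bp before RNA45SN3. All 3 lay inside the interval over the start of their unit. The table used here held 2 hairpins of this miRNA, with 1 distinct sequence between them. MIR10396B (hairpin chr21:8436324-8436374, 86.3% G or C) lay 3102 bp inside RNA45SN1, in the last part of the 5′ ETS, and no interval covered it. Whether these miRNAs were transcribed was not measured, because an open site says nothing of the RNA made.

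Each summit is described by 3 quantities. Enrichment is the authors' fold over the local background, the pileup counts the fragments that overlap at the summit, and the local background is the pileup expected around it. The sources used here do not say whether whole fragments or single reads were piled up, and "fragments" stands for either. The last pair was recovered from the authors' enrichment and −log10 p. The lowest background in the list, 20.3 fragments, recurred in 53.0% of all summits and is called the genome-wide background. Across the list the median enrichment was 4.27 and the median pileup 101 fragments. The labelled cell type was set beside marker genes. A summit lay at most 1000 bp from an end of 4 of 6 mesenchymal genes (VIM, FN1, CDH2 and SPARC, but neither COL1A2 nor THY1), of 3 of 5 epithelial genes and of 2 of 4 blood genes. The share over all protein-coding genes was 65.7%, near these shares, so the counts do not set 1 cell type apart. At the summit of highest enrichment, VIM had 2703 fragments, FN1 1216, SPARC 915 and CDH2 561. Among the epithelial genes KRT8 had 763 and KRT18 had 107, both in 1 shared interval. EPCAM had 44, and CDH1 and ESRP1 had no summit. The blood genes CD3E and SPI1 had 671 and 515. Either gene end counted, so a summit need not mark a gene's start. The interval of CD3E lay past the gene's highest position, and that of SPI1 lay by its lowest.

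The 4011 summits had a median enrichment near that of the list, with a higher pileup and background, and both medians depended on the long intervals. Their median enrichment was 4.13, close to the 4.27 of the whole list, with quartiles of 2.35 and 7.22. Their median pileup was 169 fragments against 101 in the list, 1.67 times as high. Their median background was 40.2 fragments, and only 28.1% of them (interval 26.8 to 29.6%) stood on the genome-wide background. With only the strongest summit of each interval the medians were 2.49 and 96.0, against 4.74 and 126 in the list treated the same way. In intervals of at most 10 kb they were 2.28 and 92.5, against 3.90 and 107. The higher pileup was therefore not seen when long intervals counted once or not at all. On alternate haplotype sequences, which repeat parts of the assembled chromosomes, the 3231 summits had a median enrichment of 4.96, a median pileup of 127 and 49.1% at the genome-wide background.

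Pileups above 1000 fragments occurred at 630 of the 4011 summits (15.7%), against 4.76% of the whole list. Above 5000 fragments there were 151, which made up 32.2% of all such summits in the list, and above 10000 there were 91, or 63.2% of the list's 144, mitochondrial summits included. Among the 100 highest pileups outside the mitochondrial sequence, 76 belonged to these scaffolds and ribosomal genes. Ranked by enrichment instead, 5 of the top 100 and 16 of the top 1000 did, and the best of them ranked 12. High fragment numbers and high enrichment thus picked out largely separate summits.

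**Figure D1:**
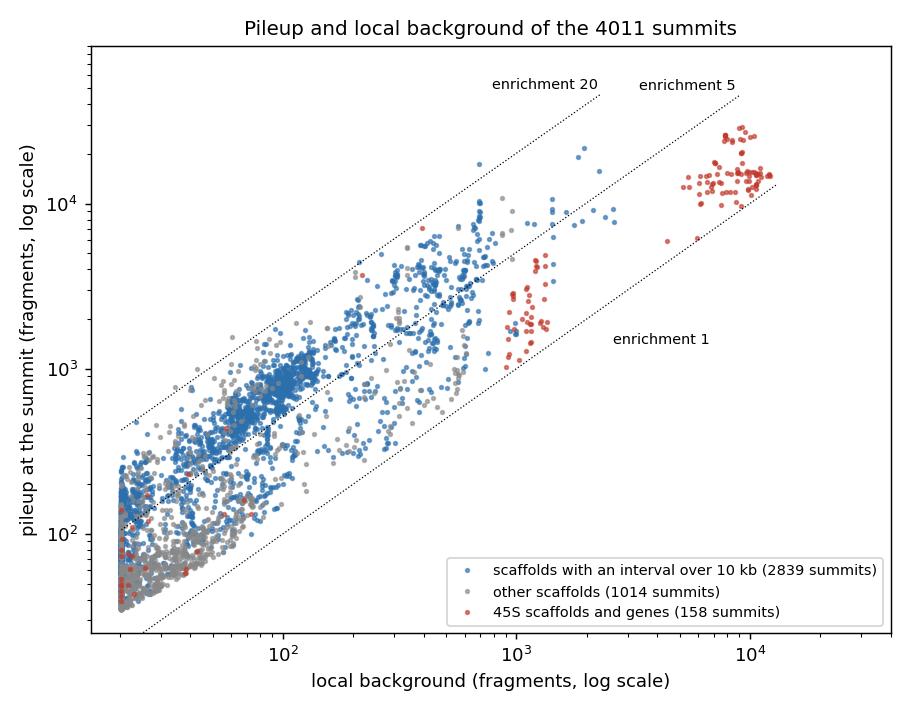
Pileup at the summit against the local background, both in fragments on log scales, for all 4011 summits; colours separate scaffolds with an interval over 10 kb, other scaffolds, and the scaffolds and chromosome 21 genes of the ribosomal units. Dotted lines mark an enrichment of 1, 5 and 20. The ribosomal summits reach 29027 fragments at an enrichment of only about 3, over a median background of 9150 within the 5 units.

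The 3 kinds of sequence differed from each other. Unlocalised scaffolds had a median enrichment of 4.36, a pileup of 143 and 36.3% of summits at the genome-wide background. Unplaced scaffolds had a lower median enrichment, 3.69, with a higher median pileup, 244, and 18.1% at the genome-wide background. The 35 summits in chromosome 21 ribosomal genes had a median of only 1.62 for enrichment but 14914 for pileup, and none stood on the genome-wide background. Enrichment and pileup thus ran in opposite order over the 3 kinds.

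Accessible intervals on these sequences were long. The 4011 summits shared 807 intervals, which covered 2.22 Mb. Intervals had a median length of 705 bp (quartiles 433 and 1335 bp, longest 134071 bp), against 526 bp in the list, and 56.0% held a single summit, against 84.5%. Intervals over 10 kb numbered 38 and held 2395 of the summits (59.7%), against 40.1% of summits in the whole list. Within an interval, neighbouring summits were a median of 463 bp apart, against 515 bp in the list.

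**Figure D2:**
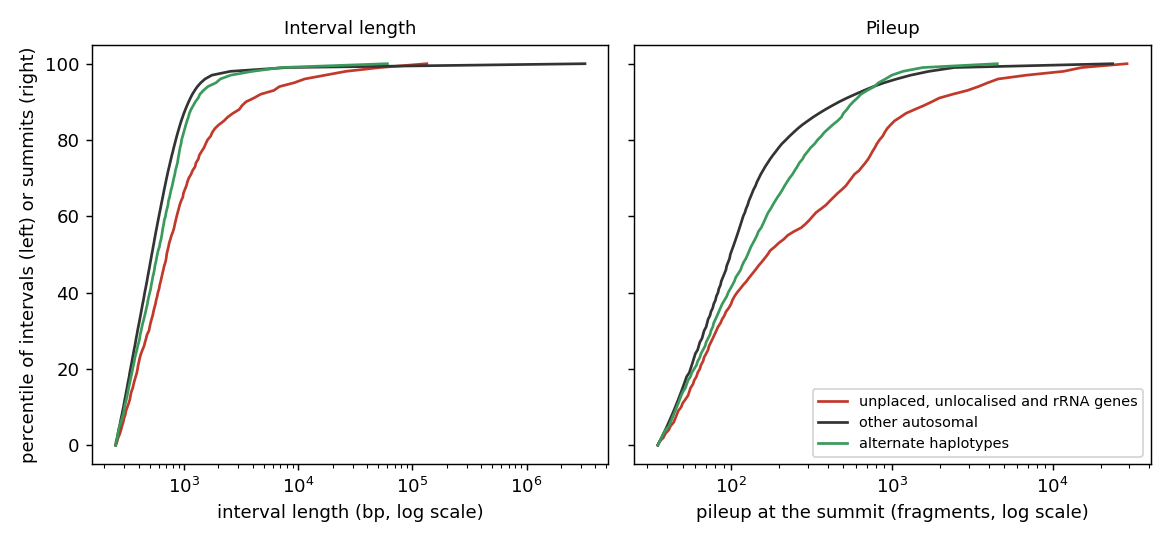
Cumulative curves of interval length in bp (left, over intervals) and pileup in fragments (right, over summits), both on log x axes, for the scaffolds and ribosomal genes, for all other autosomal sites and for alternate haplotypes. The red curve lies to the right of the others over most of both panels, but autosomal intervals reach further, to 3249741 bp against 134071 bp.

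Pooled over their summits, long intervals on these scaffolds differed from long intervals on the autosomes, but not on every scaffold. The pair of chromosome 2 scaffolds described below was closer to the autosomal values in pileup and in share at the genome-wide background. Over the summits of the 38 long intervals the median was 6.04 for enrichment and 293 for pileup, and 31.5% stood on the genome-wide background. On autosomes the 71083 summits in intervals over 10 kb had medians of 4.50 and 95, and 82.8% stood on the genome-wide background. In intervals of at most 10 kb the order was turned, with a median enrichment of 2.28 and pileup of 92.5 on these sequences, against 3.89 and 107 on autosomes. These are descriptions of 1 list, and summits of 1 interval share their fragments, so no test was made.

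The scaffolds fell into 3 sets by these features. In 21 scaffolds at least 1 interval exceeded 10 kb; they carried 2839 summits, whose enrichment had a median of 5.53 and whose pileup had one of 265. A further 83 scaffolds had no such interval and no ribosomal unit. Their 1014 summits had medians of 2.28 for enrichment and 78 for pileup, and the authors' deposited table gave 53.7% of these a −log10 q below 10, against 24.0% of all 4011. The last set was the 2 scaffolds that hold 45S units, with medians of 1.96 and 3273 over their 123 summits.

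Summits were concentrated on few sequences, in counts not adjusted for scaffold length. The 10 scaffolds with the most summits carried 2127 of them (53.0%), 15 scaffolds carried at least 100 each, and 53 of the 106 carried fewer than 10. The median pileup of a scaffold ran from 35.0 to 6668 fragments, and 12 scaffolds had a median above 1000. On 30 scaffolds every summit stood on the genome-wide background, and on 27 none did. These counts include the 15 scaffolds with a single summit, which fall in one or the other set by construction.

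The unlocalised scaffold chr17_KI270729v1_random held the most summits, 346 in 8 intervals, at medians of 4.94 for enrichment and 132.5 for pileup. It also carried the summit with the highest −log10 q of the authors' deposited table, 17158. That summit had a pileup of 17415 fragments over a background of 689, an enrichment of 25.2, and lay in an interval at positions 163 to 6509 of the scaffold with 8 summits. Chromosome 17 contributed another long run, chr17_KI270730v1_random, where 160 summits made 1 interval of 102430 bp with a median pileup of 102.

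The longest interval, 134071 bp, lay on chr22_KI270736v1_random at positions 47789 to 181859. Its 272 summits had pileups from 286 to 1552, with a median of 819, and none stood on the genome-wide background. The median enrichment in it was 8.04. Every summit in this interval therefore had at least 286 fragments, above the list's median of 101.

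On chrUn_GL000216v2 an interval of 87127 bp held 190 summits, whose median pileup was 928 at an enrichment of 7.74. On chrUn_KI270756v1 a single interval, positions 99 to 79328, held all 155 summits, with pileups of 226 to 1648 and a median enrichment of 8.52. The scaffold chr14_GL000225v1_random had 225 summits in 25 intervals and a higher median pileup, 1456, at a lower median enrichment, 4.56. Its enrichment was thus below that of the other two, at a higher pileup.

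Among the scaffolds at the other end was a pair from chromosome 2. On chr2_KI270715v1_random all 178 summits stood on the genome-wide background, with a median pileup of 75 and a highest pileup of 138. On chr2_KI270716v1_random 95.2% of 165 summits did, with a median pileup of 67 and a highest of 478. Both scaffolds still held intervals over 10 kb, the longest of 52694 and 73544 bp. Long intervals thus also occurred on scaffolds with pileups below the list's median of 101.

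By parent chromosome, unlocalised summits came mainly from chromosomes 22 (619 on 9 scaffolds), 17 (618 on 3), 14 (377 on 8) and 2 (343 on 2). These 4 held 86.9% of the 2253, and 13 chromosomes were represented. Median pileups were 713 for chromosome 22, 126 for 17, 409 for 14 and 71 for 2. These medians rest largely on single scaffolds. For chromosome 14, chr14_GL000225v1_random gave 225 of the 377 summits with a median of 1456, and the other 7 scaffolds had medians of 49 to 274. For chromosome 22, chr22_KI270736v1_random gave 277 of the 619 with a median of 817.

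**Figure D3:**
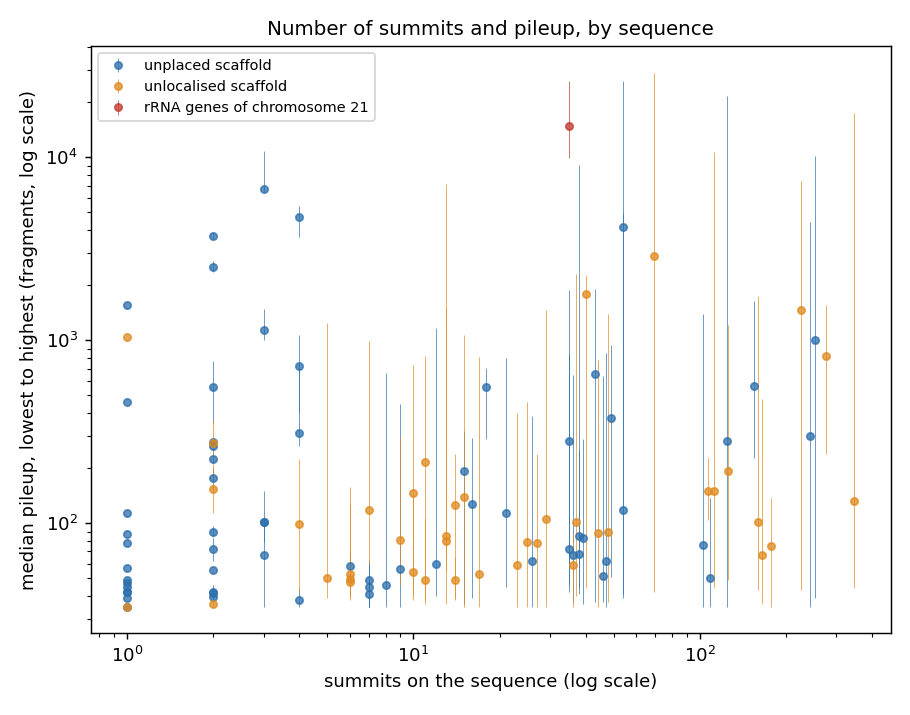
Each point is 1 sequence, with its number of summits on the x axis and its median pileup in fragments on the y axis, both on log scales; vertical lines run from its lowest to its highest summit. Scaffolds with 1 to 4 summits span pileups from 35 to above 10000, and the chromosome 21 ribosomal genes sit highest with a median of 14914.

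High pileups also occurred on scaffolds to which no 45S gene was assigned, whose sequence was not searched for ribosomal DNA here. There 499 summits exceeded 1000 fragments (13.0% of 3853), 63 exceeded 5000 and 9 exceeded 10000. The highest was on chrUn_KI270438v1, at 21758 fragments, although the median of its 125 summits was 283. Likewise chr17_GL000205v2_random reached 10660 with a median of 149.5 over 112 summits, and chrUn_GL000216v2 reached 10116 with a median of 1007 over 253. On each of these scaffolds the highest summit thus stood far above the median. On chrUn_GL000216v2 the median was itself well above the list's 101. On chr1_KI270709v1_random the median of the 40 summits, 1782.5, was near the highest value, 2273, at a median enrichment of 8.15. Its lowest summit had 44.0 fragments.

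Some scaffolds were covered by intervals over nearly all of the stretch up to the last called site. On 13 scaffolds the intervals covered over 90% of the sequence up to the last interval's end, and on 12 of them this was 1 single interval. On 9 of these the last interval ended before 5000 bp, out of 32 scaffolds where it did so. Their highest enrichment ran from 5.07 to 19.1 with a median of 15.6. For example, chrUn_KI270333v1 was covered from position 9 to 2696 by 1 interval with 4 summits of 3682 to 5443 fragments. The scaffold chrUn_KI270337v1 was covered from 10 to 1102 with 2 summits, 3585 and 3871 fragments, at a median enrichment of 18.2. Both examples had the highest median pileups of the 9. On chrUn_KI270311v1 and chrUn_KI270418v1 every summit stood on the genome-wide background, each scaffold with a median pileup of 101. Scaffold lengths were not used here, so sequence after the last interval is not counted.

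The highest enrichments were found on several scaffolds. The summit of chrUn_KI270310v1 (positions 157 to 1144) had the highest, 25.4, with 1562 fragments over a background of 60.5. Next after the chromosome 17 summit already named came chr9_KI270718v1_random at 22.6 (993 fragments), chrUn_KI270304v1 at 21.7 (770 fragments) and a summit of chrUn_KI270442v1 at 20.9 (4431 fragments). The last of these lay in an interval of 28970 bp with 52 summits, so high enrichment was not limited to the shortest intervals.

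Turning to the ribosomal units, RefSeq names 5 45S genes. RNA45SN1 (chr21:8433222-8446572), RNA45SN2 (chr21:8205988-8219302) and RNA45SN3 (chr21:8389035-8402343) lie on chromosome 21 and supplied the 35 summits found there. For RNA45SN4 and RNA45SN5 the gene table gives positions without the scaffold's name. They were assigned by the highest pileup at those positions, to chr22_KI270733v1_random (122273 to 135645) and chrUn_GL000220v1 (105424 to 118780). At RNA45SN5, 11 of the 12 summit offsets of RNA45SN1 recurred within 50 bp, against at most 1 on any other unplaced scaffold. At RNA45SN4, 5 of 12 recurred, against 4 on the next scaffold, whose highest pileup was 1222 rather than 29027. The assignment of RNA45SN4 thus rests on pileup more than on offsets.

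Summits in all 5 units had very high pileups at low enrichment. For RNA45SN4 and RNA45SN5 the assignment used the highest pileup, so their height follows from it, whereas the chromosome 21 units were placed by the table alone. Together they held 60 summits with pileups from 9665 to 29027 (median 14926), over a median background of 9150 and with a median enrichment of 1.65. The highest pileup in each unit was 26143 in RNA45SN1, 25755 in RNA45SN2, 24390 in RNA45SN3, 29027 in RNA45SN4 and 26147 in RNA45SN5. The lowest summit in each was 9884, 10045, 10225, 9665 and 11728 in the same order. Even the lowest of the 60 had 476 times the genome-wide background. Of the 60 summits, 58 exceeded 10000 fragments, 40.3% of all such summits in the list, and 12 were among the 20 highest outside the mitochondrial sequence. The units resembled each other closely in level, and since reads of identical copies can be shared out among them in mapping, they are not 5 separate measurements.

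Along the unit, an interval of 3201 to 3251 bp covered the start of all 5 genes, beginning 838 to 908 bp before it and ending 2320 to 2366 bp after it. All summits of these intervals lay after the start, inside the 5′ ETS, the leading spacer that is cut away during processing. No summit lay in the 1000 bp before any of the 5 starts, where the promoter lies, though the intervals covered most of that stretch.

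The highest 5′ ETS summit had 26143 fragments at 1325 bp in RNA45SN1, 24532 at 1399 bp in RNA45SN2 and 24318 at 1393 bp in RNA45SN3. It had 29027 at 972 bp in RNA45SN4 and 26147 at 1329 bp in RNA45SN5. These values exceeded the highest 18S summit of the same unit 1.60 to 1.93 times and the highest 28S summit 1.54 to 1.88 times. The 5′ ETS held 4 summits each in RNA45SN2 and RNA45SN4 and 3 in the others. All 4 of RNA45SN4 were high, with 28707, 29027, 27181 and 25326 fragments. In RNA45SN1, RNA45SN2, RNA45SN3 and RNA45SN5 the lowest 5′ ETS summit had 15383, 12215, 12050 and 15335.

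**Figure D4:**
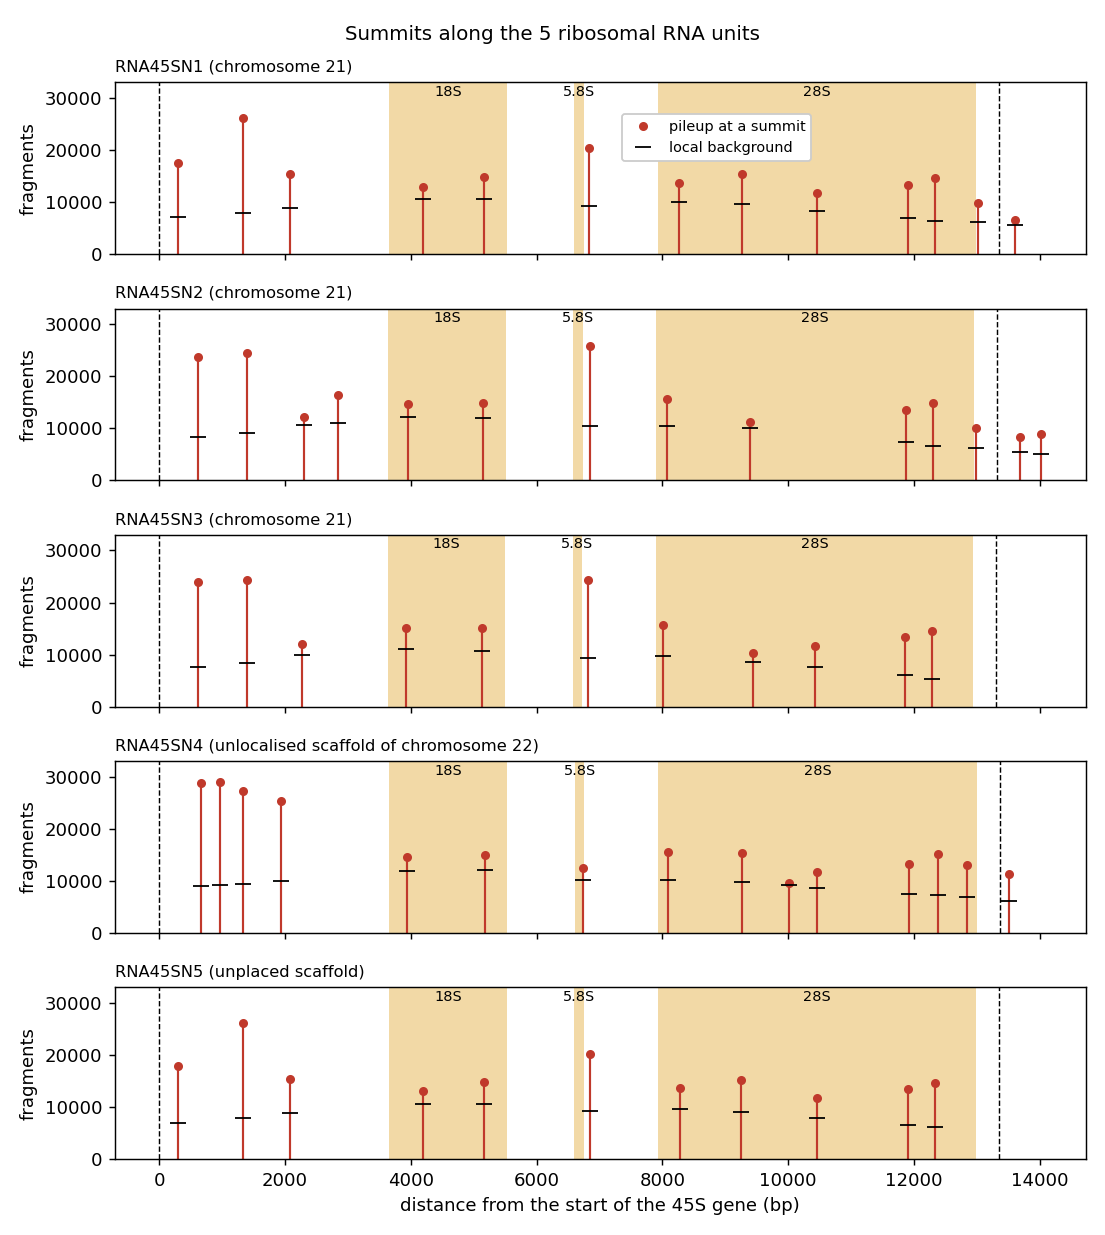
Pileup (red) and local background (black dashes) in fragments at each summit, by distance in bp from the start of the 45S gene, for the 5 units; shaded bands are the 18S, 5.8S and 28S genes and dashed lines the ends of the 45S gene. In every unit a 5′ ETS summit stands above all 18S and 28S summits, and in 4 of 5 an ITS2 summit does so too.

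Over the mature 18S gene, whose RNA forms the small ribosomal subunit, there were 2 summits in each unit. The higher of them had 14914, 14938, 15202, 15020 and 14809 fragments in RNA45SN1 to RNA45SN5. Enrichment there was 1.24 to 1.40, because the local background was 10619 to 12100. The units thus differed little over 18S, from 14809 to 15202 fragments.

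ITS1, which separates 18S from 5.8S, had no summit in any unit. ITS2, between 5.8S and 28S, had 1 summit in 4 units, at 6810 to 6856 bp from the start. It had 20414 fragments in RNA45SN1, 25755 in RNA45SN2, 24390 in RNA45SN3 and 20195 in RNA45SN5. In RNA45SN2 and RNA45SN3 it was the highest summit of the unit, though in RNA45SN3 it was only just above the 24318 of the 5′ ETS. RNA45SN4 instead had a summit inside the 5.8S gene, at 6735 bp, with only 12527 fragments.

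The 28S gene, which encodes the main RNA of the large subunit, held 26 of the 60 summits. Its highest summits, 15326, 15615, 15742, 15463 and 15146 fragments in the order of the units, were again within a narrow range, 1.02 to 1.05 times the highest 18S summit. The 3′ ETS had summits in 2 units, of 9884 and 10045 fragments. The highest 5′ ETS summit was 2.64 times this 3′ ETS value in RNA45SN1 and 2.44 times in RNA45SN2.

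Summit positions were shared in part between units. All 11 summits of RNA45SN5 had a summit of RNA45SN1 within 100 bp, and 11 of 12 the other way. RNA45SN2 and RNA45SN3 shared 10 of 12 and 10 of 11. RNA45SN1 shared only 6 of 12 with RNA45SN2, and RNA45SN4 shared 9 of its 14 with RNA45SN3, which were 9 of the 11 of RNA45SN3, and 6 with RNA45SN1. RNA45SN3 thus shared nearly as many with RNA45SN4 as with RNA45SN2. The ITS2 heights were 20414 and 20195 in RNA45SN1 and RNA45SN5 against 25755 and 24390 in RNA45SN2 and RNA45SN3. The sequence of the units was not used here, so whether units that share positions also share sequence was not tested.

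The edge of the rule fell within a slope. The last summits inside the genes had 10045 fragments (RNA45SN2, 328 bp before the end), 9884 (RNA45SN1, 330 bp) and 14464 (RNA45SN3, 1018 bp). The summits just outside had 8361, 8988 and 5790 at 379, 713 and 1046 bp after the end of RNA45SN2, and 6556 at 250 bp after the end of RNA45SN1.

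Beyond the transcribed part, the intergenic spacer had its own accessible block. At 21 to 26 kb from the start, each unit had 5 to 8 summits, and the highest of them lay inside an interval of 9302 to 9809 bp. It had 4723 fragments in RNA45SN1, 5405 in RNA45SN2, 4949 in RNA45SN3, 3028 in RNA45SN4 and 4867 in RNA45SN5, at enrichments of 2.76 to 4.16. The background there, 1095 to 1324 fragments, was well below that of the genes. In the next stretch, 26 to 33 kb, the highest summits had 3106 to 3823 fragments. RNA45SN4 was the lowest of the 5 in both stretches, although it was the highest over the 5′ ETS.

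Another start-like interval followed at 43994 to 45083 bp from that of RNA45SN2, RNA45SN3, RNA45SN4 and RNA45SN5. After RNA45SN3 it was the start of RNA45SN1 itself. After the others it was a copy for which the table names no 45S gene, of 23606 fragments after RNA45SN2, 25302 after RNA45SN4 and 26058 after RNA45SN5. These heights were within the range of the named units' 5′ ETS or just under it. The copy after RNA45SN2 (chr21:8249494-8252366) was the highest pileup outside the mitochondrial sequence that the rule did not take in.

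Upstream of most units the highest summits had lower backgrounds and higher enrichments. Near 98 kb before the start, RNA45SN4 had a summit of 3670 fragments at an enrichment of 16.8, and RNA45SN5 one of 7147 at 18.03. RNA45SN2 had one at a similar distance, 2222 fragments at 12.8, which was on chromosome 21 outside the genes. Weaker summits recurred near 50 kb before RNA45SN2, RNA45SN3 and RNA45SN4 (124, 145 and 139 fragments) and near 12 kb before RNA45SN2, RNA45SN3, RNA45SN4 and RNA45SN5 (444, 398, 437 and 230). RNA45SN1 also had a summit near 12 kb before its start, of 1937 fragments, but at an enrichment of 1.45 over a background of 1336, in the spacer that follows RNA45SN3. Near 50 kb and at the other sites near 12 kb, the highest summit of each site had an enrichment of 5.77 to 7.51. Inside the 45S genes the highest enrichment was 3.34. Some sites near 12 kb also held lower summits, down to 58 fragments before RNA45SN5, which this range leaves out.

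The machinery that transcribes the 45S units was described by the genes for RNA polymerase I and its partners. Of 27 such genes, 22 (81.5%) carried a summit at most 1000 bp from an end, against 65.7% of 20037 protein-coding genes. The median of the strongest enrichment per gene was 13.9 with a median pileup of 1156.5, against 11.7 and 740 for protein-coding genes with a summit. Among subunits 6 of 8 had one, with none at POLR1G or POLR1H. Among initiation and termination factors 7 of 8 did, led by RRN3, which brings the polymerase to the promoter, at 17.5. UBTF, which coats active units, had no summit within that distance.

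Of 5 factors that silence ribosomal units, SMARCA5, SIRT1 and RRP8 had a summit and BAZ2A and SUV39H1 did not. All 6 nucleolar proteins had one, with the highest pileup at NOLC1, a nucleolar phosphoprotein, of 3915 fragments at an enrichment of 15.4. At 2500 bp all 27 genes had a summit, against 74.8% of protein-coding genes. At the strongest summit of each of the 22 genes with one within 1000 bp, the median pileup was 1156.5 and the median enrichment 13.9. Over all 60 summits of the 45S units, weak ones included, the medians were 14926 and 1.65. The strongest enrichment in each unit was 2.83 to 3.34. These genes thus stood at far lower pileups than the 45S units and at higher enrichment.

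The 5S RNA, the remaining ribosomal RNA, is made by RNA polymerase III from an array on chromosome 1 and was not part of the rule. All 17 of its genes had a summit within 1000 bp, in windows that overlap, and 1 interval with 50 summits covered the array. The highest pileup per gene was 1662 to 4532 fragments (median 4111) at enrichments of 8.60 to 11.9. The local background at the array had a median of 372 fragments, against 9150 in the 45S units.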

How the data were processed

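Libraries were 12 ATAC-seq samples in 3 groups of 4. The submitters' processing notes name fastp 0.20.0, Bowtie2 2.4.3, SAMtools, deepTools 3.5.0, MACS2 2.2.7.1 and the build hg38, without roles or order. How reads with several matches, duplicates or a control were treated is not given in the sources used here. The deposited list had 10 columns. The authors' score, fold enrichment (a ratio), −log10 p-value and −log10 q-value were used as deposited, and the deposited summit offset gave positions. Per-library counts were not analysed here, so the tests planned between concentrations were not run, and no test is reported.

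Lines with the same start and end were summits of 1 interval. Pileup and local background were solved from the authors' enrichment, taken as (pileup + 1)/(background + 1), and from p as a Poisson upper tail. This model is not in the labels. Its solution was tested on simulated data and returned whole pileups, within 0.05, for 99.96% of the list and 98.7% of the members. In the chromosome 21 ribosomal genes it did so for 45.7%, where deposited rounding limits large pileups, so those were rounded to whole fragments. A background within 0.2% of the lowest counted as genome-wide. Gene positions came from the RefSeq table for GRCh38.p14. Regions of a unit follow the annotated 18S, 5.8S and 28S genes. Medians over scaffolds cover all their summits. Intervals on shares treat summits as independent, which neighbours are not.

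Named sequences were those with the most summits, the highest enrichment or pileup, the longest intervals and the 45S units. Further scaffolds were picked as examples, outside that rule. Members, lists and rules were chosen with earlier results of these data known. Python 3.11.15, numpy 2.4.6, scipy 1.17.1, pandas 2.3.3 and matplotlib 3.10.9 were used.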

Additional observations from a re-analysis of the deposited data

How the results depend on the processing

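Of 37 alternatives over 10 results, 16 left the value within the error used or 1.5 times the count, and 21 moved it. Counting each interval once gave 807 sites (442 unplaced, 343 unlocalised, 22 in chromosome 21 ribosomal genes). Leaving out intervals over 10 kb gave 1616 summits (896 unplaced, 685 unlocalised). The median enrichment was 2.49 for the strongest summit of each interval, 2.28 in intervals of at most 10 kb, 5.73 at a −log10 q of at least 10 and 3.93 without the sequence with the most summits. The median pileup became 96.0, 92.5 and 354 under the first 3 of these. The share at the genome-wide background was 25.7%, 23.2%, 22.4% and 26.5% under all 4. The share in intervals over 10 kb was 72.1% at the stricter q, 56.6% without the sequence with the most summits, and 62.2% without the sequences that hold 45S units, an alternative chosen after seeing the data. A median enrichment close to that of the whole list was thus not kept without the long intervals. No paired analysis was possible because the list is pooled and carries no value per library, and no replicate could be left out. Depth per library is unknown, and pooled depth sets which weak sites were called.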
